A study of Xenopus laevis with 59 samples.

Results

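The subanimal and the subvegetal part of the Xenopus laevis oocyte were compared by RNA sequencing of sections B and D, taken from the same oocyte. Each oocyte had been frozen, cut from the animal to the vegetal pole, and its slices collected into 5 tubes, of which A holds the animal cap, B the layer under it, C the middle, D the layer above the vegetal cap, and E the vegetal cap. The comparison holds 9 pairs of sections, or 18 of the 59 libraries of the series: 5 small oocytes of 720 to 810 µm, 2 medium oocytes of 1050 µm, and 2 big oocytes of 1140 and 1200 µm. Small oocytes are stage IV. Medium oocytes are stage V, and big oocytes are named stage VI in the labels and late stage V in the methods. All 9 oocytes came from a single female and none was treated, so p-values measure the spread between oocytes of 1 animal and not between animals. A further 6 libraries, sections B and D of 3 very small oocytes (560 to 580 µm) from another female, were compared in the same way and used only for comparison. B and D were set against each other because both are inner slices with a like ratio of surface to volume, so RNA of the follicle cells that wrap the oocyte should weigh equally in both.

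The frog oocyte is polarised before fertilisation. The germinal vesicle, the large nucleus of the oocyte, lies in the animal hemisphere, and the vegetal cortex stores RNAs that later give rise to germ cells and pattern the embryo. RNAs of the early pathway, such as nanos1 and dazl, collect in the mitochondrial cloud of young oocytes and reach the vegetal tip with it as germ plasm. RNAs of the late pathway, such as vegt and gdf1 (also called Vg1), move later along microtubules with kinesin motors and spread over the vegetal cortex. Because the species is tetraploid, most genes are present as 2 copies from the ancestral subgenomes, marked .L and .S, and reads that fit both copies can be counted for the wrong copy or lost.

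The study chose which oocytes to sequence by quantitative PCR of 6 transcripts along the axis, and these are ifrd2 and exd2 for the animal side and nanos1, wnt11b, otx1 and grip2 for the vegetal side. Their differences between B and D are therefore not independent of the choice of oocytes. The primer pairs are shown because they fix which copy was used to orient each oocyte; the chromosome of each gene follows its name.
ifrd2.L (4L) forward: atttgcggcttgctctctct
ifrd2.L (4L) reverse: cggaacaactcctccccttc
exd2.L (8L) forward: gcagacccgcagtagaaca
exd2.L (8L) reverse: gaacccaagaaggtgcagga
nanos1.L (7L) forward: gcaccttttctaatgttgctgc
nanos1.L (7L) reverse: tgccgagtgagacatcagtg
wnt11b.L (8L) forward: cagcaccagactgagcctatt
wnt11b.L (8L) reverse: cccaaaactggcccctgaa
otx1.L (5L) forward: ctccctgtgtcgtcaagagc
otx1.L (5L) reverse: ggtatcctttgctccaccgt
grip2.L (4L) forward: tttggctttggtctctaggc
grip2.L (4L) reverse: tttgtctgtaccaccggaga

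Section B libraries held 1853333 to 6276542 counts (median 4367846) and section D libraries 2624527 to 7163780 (median 4564454). B was the deeper library in 3 of 9 oocytes, and the mean log2 ratio of totals was -0.14 ± 0.70 (SD, n = 9; exact sign-flip permutation test, two-sided, p = 0.566, with 0.0039 the smallest p that 9 pairs allow). Small oocyte 3 stood apart. Over 5700 abundant transcripts that were not called, the SD of its log2 ratio of B to D was 0.442, against 0.157 to 0.217 in the other 8 oocytes. The spread was in its section B, whose log2 levels differed from those of the other small oocytes with an SD of 0.392, against 0.167 to 0.270 for the other small B libraries. Its section D (0.182) lay within the range of the other small D libraries (0.131 to 0.204). Counts are therefore given with it and without it.

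Markers of surrounding cells were compared next. Summed CPM (counts relative to the library total, scaled by TMM) of 16 granulosa and follicle cell transcripts had a median of 646 in B and 660 in D, with log2 ratios of -0.12 to 0.21 and a median of 0.04 over 9 oocytes. Most of this sum came from both copies of krt8 and krt18, which varied little along the axis (krt8.L 333, 337, 360, 334 and 336 CPM in A to E). The sum therefore says little about scarcer members such as cyp19a1.L (15.7, 7.82, 6.65, 7.05 and 17.1 CPM). None of these 16 was called, nor any of 23 stroma and theca or 12 blood and endothelium transcripts. Over all transcripts tested, 1.95% were called higher in B and 3.12% higher in D, so 0 calls in lists this short say little. At an unadjusted p below 0.05 by edgeR the counts were 0, 0 and 1, the last higher in B, where 2544 of all 19012 passed in either direction. In basement membrane 1 of 24 was called, nid2.L, which was higher in D (log2 -0.20, adjusted p = 0.0517 by edgeR's quasi-likelihood test, as for all adjusted p-values here). In smooth muscle 1 of 12 was called, smtn.S, higher in B (log2 0.51, adjusted p = 0.03). Without small oocyte 3, 2 basement membrane transcripts were higher in D and 1 in B, and 1 of the blood and endothelium list was higher in B. The stroma and theca sum had log2 ratios of B to D between -0.77 and 0.83 and a median of 0.13, and the smooth muscle sum was higher in B in 7 of 9 oocytes, with a median of 0.29. Both copies of smtn made up most of the smooth muscle sum, and smtn.S fell from 249 CPM in A to 129 in E. The scarcer myh11.L had 9.76 CPM in A, 3.02 in B, 3.37 in D and 10.0 in E. In the small oocytes without small oocyte 3, 4 of the 23 stroma and theca transcripts were higher in B, where 0.768% of all transcripts were. The list median was 0.39, and the part of these transcripts in the animal calls of that fit was not tested. Of 20 oocyte marker transcripts 5 were higher in D, namely dazl.L, both copies of vegt, and gdf9.S and bmp15.L, growth factors of the oocyte.

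Over the 9 oocytes, 370 transcripts were higher in B (1.95% of the 19012 tested) and 593 were higher in D (3.12%), each at an adjusted p below 0.1 with oocyte as block. The vegetal side held the steeper differences. The median size of a called difference was 0.37 on the log2 scale for B and 0.72 for D, and 67 of the 370 against 350 of the 593 differed at least 1.5-fold. At 4-fold or more, 7 transcripts were higher in B and 82 in D. The difference had the same sign in all 9 oocytes for 100 of the 370 and for 343 of the 593. Without small oocyte 3 the counts rose to 882 higher in B (4.64%) and 981 higher in D (5.16%). Of the calls over 9 oocytes, 366 of 370 and 592 of 593 were also called without it, and none was called in the other direction. Leaving out a larger oocyte lowered the animal count, to 203 and 174 without big oocytes 1 and 2 and to 148 and 193 without medium oocytes 1 and 2.

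Among transcripts with a gene symbol, the steepest vegetal differences belonged to fam168b.S and to dazl.L, which encodes a translational activator of the germ line. Some gene models without a symbol differed more, by up to 4.52 in size on the log2 scale. In fam168b.S the level was 6.99 CPM at the lowest, 15.8 at the median and 33.4 at the highest over the 9 B sections, against 89.9, 193 and 345 CPM over the 9 D sections. The sections did not overlap, and the log2 difference was -3.73 (SE 0.20, adjusted p = 2.59e-09), that is 13.3-fold lower in B. For dazl.L the lowest, median and highest levels were 0, 1.23 and 2.57 CPM in B and 9.74, 18 and 28 CPM in D, again with no overlap (log2 -3.71, SE 0.21, adjusted p = 2.86e-09). At 11.2-fold lower in B, trim36.L came close (log2 -3.49, adjusted p = 2.59e-09); Trim36 is a ubiquitin ligase that the frog embryo needs for its vegetal microtubules. Its levels were 8.11 to 16.7 CPM in B and 37.3 to 224 in D.

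Enzymes and lipid carriers were also among these. The acyl-CoA synthetase acsl1.S was lower in B by 3.49 on the log2 scale (adjusted p = 2.86e-09), with levels of 15.4 to 39.7 CPM in B and 110 to 393 in D. The glycolytic mutase pgam1.S (log2 -3.32, adjusted p = 2.59e-09) and stard3.L, which moves cholesterol between endosomes and the endoplasmic reticulum (log2 -2.86, adjusted p = 5.5e-09), did not overlap between sections either. Less abundant were cdr2l.L (log2 -3.32), nat6.L, an enzyme that acetylates actin (-3.23), trank1.L (-3.23), farp2.L, an exchange factor for Rac (-3.18), and ppp1r2.L, an inhibitor of protein phosphatase 1 (-2.88), all called with the same sign in 9 oocytes. For nat6.L and farp2.L the ranges of B and D overlapped, the lowest D levels being 1.3 and 1.95 CPM.

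**Figure D1:**
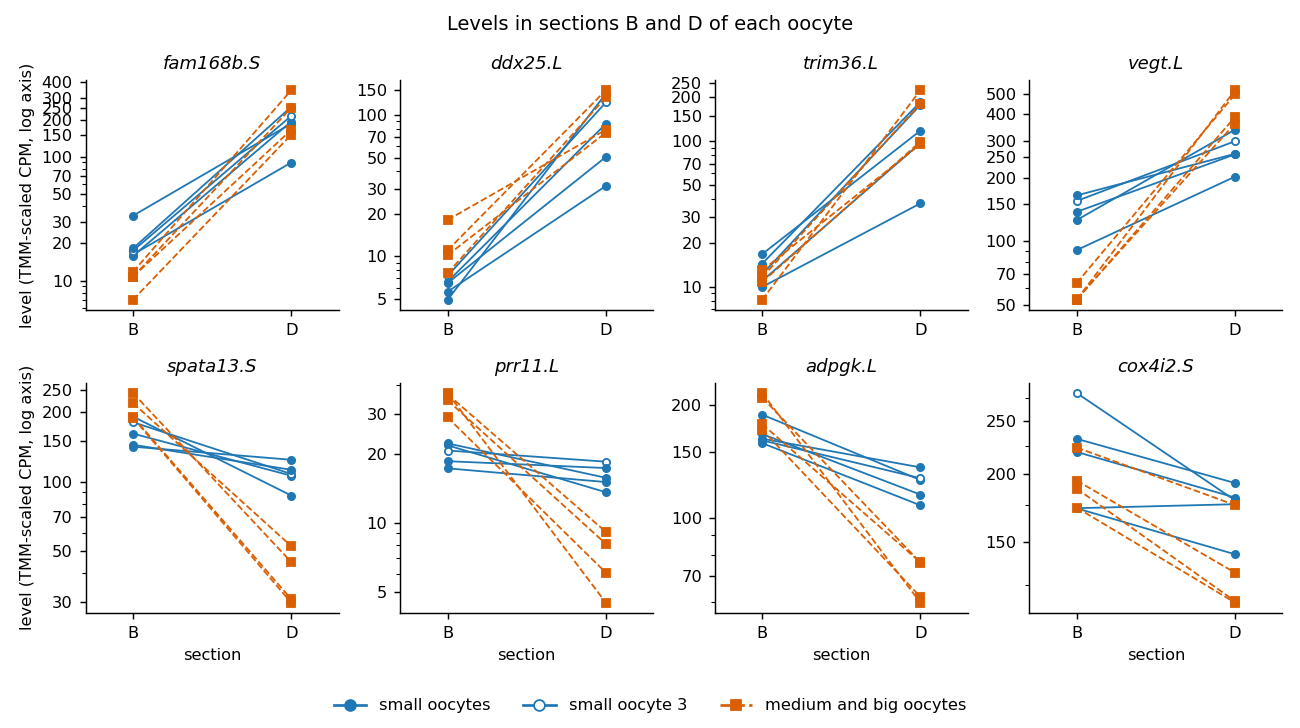
Levels (TMM-scaled CPM, log axis) of 8 transcripts in sections B and D, 1 line per oocyte; circles are the 5 small oocytes, with small oocyte 3 open, and squares the 4 medium and big oocytes. The upper 4 transcripts are higher in D in every oocyte, vegt.L with a steeper slope in the larger oocytes, and of the lower 4 spata13.S, prr11.L and adpgk.L are higher in B in every oocyte.

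Of 26 tested transcripts of a germ plasm list, 14 were higher in D and 1 in B, where 3.12% and 1.95% of all transcripts were. Besides early pathway RNAs the list holds plin2, dnd1, grip2, rbpms and rbpms2. From earlier work, the study's introduction names these for an intermediate pathway that overlaps the early and late ones. Its own results place grip2 with dazl in an early vegetal group, and its discussion names dnd1 among RNAs localized late. The median log2 difference over the list was -0.45, against 0.01 over all transcripts tested. This list and those that follow were drawn up with results of these data known, so their counts are not independent evidence of a direction. Besides dazl.L, the germ plasm RNA helicase ddx25.L was 11-fold lower in B, with levels of 4.94, 7.29 and 18.1 CPM (lowest, median, highest) in B and 31.5, 86.6 and 150 in D, without overlap (log2 -3.46, SE 0.21, adjusted p = 8.6e-09). Next in order, sybu.S, whose protein syntabulin links cargo to kinesin, differed by -2.70 on the log2 scale (adjusted p = 2.59e-09), and pgat.L, a germ plasm transcript of Xenopus also called Xpat, by -2.43 (adjusted p = 1.13e-06). The lipid droplet coat gene plin2.L, found with germ plasm in the frog, differed by -1.16 (adjusted p = 4.77e-05). The 1 member higher in B was ddx4.S, the vasa helicase of germ cells, with a small difference (log2 0.28, adjusted p = 0.0981). Its levels of 22.1 to 33.3 CPM in B and 19.1 to 25.6 in D overlapped.

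Of 20 late pathway and axis transcripts, 17 were higher in D and none in B, also at an unadjusted p below 0.05, with a median log2 difference of -1.88. Over all 19012 transcripts, 3.12% were higher in D and 1.95% in B, and 2544 had an unadjusted p below 0.05 by edgeR in either direction. Both copies of vegt, the T-box factor that specifies endoderm, were among them. The vegt.L levels were 52.8, 90.8 and 165 CPM in B and 202, 338 and 520 in D, and those of vegt.S were 41.9, 81.7 and 125 in B and 164, 259 and 377 in D. Neither copy overlapped between sections (log2 -1.86, SE 0.26, adjusted p = 0.000175 for vegt.L and -1.85, SE 0.20, adjusted p = 1.23e-05 for vegt.S). The 2 copies of acsl1 and of trim36 were all higher in D, acsl1.L by 7.13-fold and trim36.S by 6.36-fold. From earlier work, the study names trim36 for the intermediate pathway. The endoderm factor sox7.L was 5.07-fold lower in B (log2 -2.34, adjusted p = 1.97e-05), and the kinesin gene kif13b was lower in B in both copies (kif13b.L log2 -1.30, adjusted p = 1.74e-05; kif13b.S log2 -0.81, adjusted p = 0.0175).

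Among the transcripts used to orient the oocytes, both sides of the axis differed over the 9 oocytes, as these had been chosen to. Of 9 tested copies 5 were higher in D and 3 in B, where 3.12% and 1.95% of all transcripts were. The copy ifrd2.S was not called (log2 -0.04, adjusted p = 0.913). The levels of wnt11b.L, a Wnt ligand of the dorsal axis, were 3.23, 14.1 and 18 CPM in B and 19.5, 63.8 and 115 in D (log2 -2.71, SE 0.27), and otx1.L differed by -2.07 (SE 0.19). For grip2.L the difference was -2.56 (SE 0.35) and for nanos1.L, an RNA-binding repressor of germ cells, -2.42 (SE 0.55, adjusted p = 0.0162). The nanos1.L levels were low in both sections, 0 to 4.81 CPM in B and 2.52 to 9.87 in D, and overlapped. In medium oocyte 2 nanos1.L was higher in B (4.81 against 2.52 CPM), and in every other oocyte it was higher in D. The grip2.L levels of that oocyte were nearly even (7.06 CPM in B and 7.42 in D). Its B and D ranges overlapped too, the lowest D level being 6.17 CPM in small oocyte 1. On the animal side, exd2.L (log2 0.73, SE 0.17), ifrd2.L (0.59, SE 0.15) and exd2.S (0.40, SE 0.10) were higher in B. In the 5 small oocytes alone 0 of the 9 copies were called higher in B and 5 in D. Without small oocyte 3 it was 1 and 5. Over all transcripts, 0.0526% were higher in B and 0.92% in D in small oocytes. Without small oocyte 3 these shares were 0.768% and 1.53%. With shares this low, 0 calls for B among 9 copies say little. The ifrd2.L log2 ratio of B to D was -0.04 to 0.13 in small oocytes and 1.17 to 1.35 in larger ones. That of exd2.L was -0.54 in small oocyte 3 and positive in every other oocyte.

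The animal side held small differences spread over many genes. Apart from the 7 transcripts described below, the largest was in spata13.S, a guanine nucleotide exchange factor, whose levels were 142, 189 and 242 CPM in B and 29.9, 87 and 124 in D, without overlap (log2 1.40, SE 0.24, adjusted p = 0.00164). Among transcripts with a symbol the next was prr11.L, a gene of the dividing cell (log2 1.21, SE 0.26, adjusted p = 0.0102), whose levels of 17.3 to 37 CPM in B and 4.49 to 18.5 in D overlapped. The difference of c2orf69.S was smaller but more even between oocytes, with levels of 26.8, 32.1 and 37.3 CPM in B and 11.2, 17 and 26.6 in D (log2 0.93, SE 0.10, adjusted p = 9.52e-06). The ADP-dependent glucokinase adpgk.L (1.89-fold, adjusted p = 0.000564), the spindle microtubule protein nusap1.S (1.77-fold, adjusted p = 0.00644), the membrane-bound ubiquitin-like protein ubl3.S (1.76-fold, adjusted p = 0.000207), c1orf21.L (1.72-fold) and the haem-binding membrane protein pgrmc1.L (1.64-fold) did not overlap between sections. Those of ddt.S, lysmd3.L, tmem208.L and ndufc2.S, all 1.58-fold to 1.63-fold higher in B, overlapped.

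Of 31 tested transcripts of the animal list, 10 were higher in B and none in D over 9 oocytes, and 11 and 2 without small oocyte 3. Over all transcripts, 1.95% were higher in B and 3.12% in D, or 4.64% and 5.16% without small oocyte 3. At an unadjusted p below 0.05 by edgeR, 10 members were higher in B and 5 in D, where 2544 of all 19012 passed in either direction. The list names spata13, prr11, nusap1, ifrd2, exd2 and lima1, which were placed on it with results of these data known, so its count is not independent evidence of its direction. Among its members the actin-bundling gene lima1.S was 1.88-fold higher in B (adjusted p = 0.0032). The nuclear pore subunit nup93.L was 1.22-fold higher (log2 0.29, adjusted p = 0.0338).

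A set of 7 transcripts departed from every other animal transcript in size and in place. They are the 7 called transcripts that were at least 4-fold higher in B, and they were picked out after their values had been seen, so their levels are given as a description without a test. They are parp2.L, an ADP-ribosyltransferase of the DNA damage response, loc101733560.1.S, and the unannotated gene models Xelaev18014680m, Xelaev18044754m, Xelaev18036077m, Xelaev18002728m and Xelaev18029838m. Each had more than 70% of its level summed over A to E in sections B and C of the small oocytes, between 73.5% and 96.2%. No other of the 19012 tested transcripts passed 70%, the next highest being rflb.L at 60.4%, and the median of all was 40.2%.

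Xelaev18014680m was the abundant member. In small oocyte 1 its level was 199 CPM in A, 779 in B, 939 in C, 306 in D and 214 in E. In small oocyte 2 the 5 sections held 44.7, 748, 394, 12.6 and 32.5 CPM. In big oocyte 1 they held 537, 1103, 178, 49 and 194 CPM. The top section was C in the first of these oocytes and B in the others, and the level in D was below that in B in each. Over the 9 oocytes the B level was 282, 501 and 1103 CPM (lowest, median, highest) and the D level 12.6, 63.1 and 306, with overlap that came from small oocyte 3 in B and small oocyte 1 in D.

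The other members were scarce. For Xelaev18044754m the levels were 3.31, 7.54 and 12.6 CPM in B and 0.225, 0.897 and 1.95 in D, and for Xelaev18036077m 1.55, 4.14 and 6.89 in B and 0, 0.45 and 1.3 in D, neither with overlap. The levels of parp2.L were 1.55, 7.45 and 20.3 CPM in B and 0, 0.566 and 6.17 in D, with overlap. Its homeolog parp2.S did not share the pattern (log2 0.01, adjusted p = 0.977). Xelaev18029838m was detected in some oocytes only: its counts in B were 0, 174, 0, 3 and 43 in small oocytes 1 to 5, 3 and 423 in medium oocytes 1 and 2, and 0 and 3 in big oocytes 1 and 2. All 9 D sections together held 6 counts of it.

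Leaving that model out, the remaining 6 transcripts shared their top section within an oocyte. All 6 were highest in C in small oocytes 1, 3 and 5, and 5 of 6 in small oocyte 4, while 5 of 6 were highest in B in small oocyte 2. In medium oocytes 1 and 2 all 6 were highest in B. In big oocytes 1 and 2 it was 5 of 6 in B and 1 in A. In very small oocytes 2 and 3 all 6 were highest in C, and in very small oocyte 1, whose section A is not analysed here, 4 in C and 2 in B. The germinal vesicle was not scored in these sections, and its part in this pattern was not tested.

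**Figure D2:**
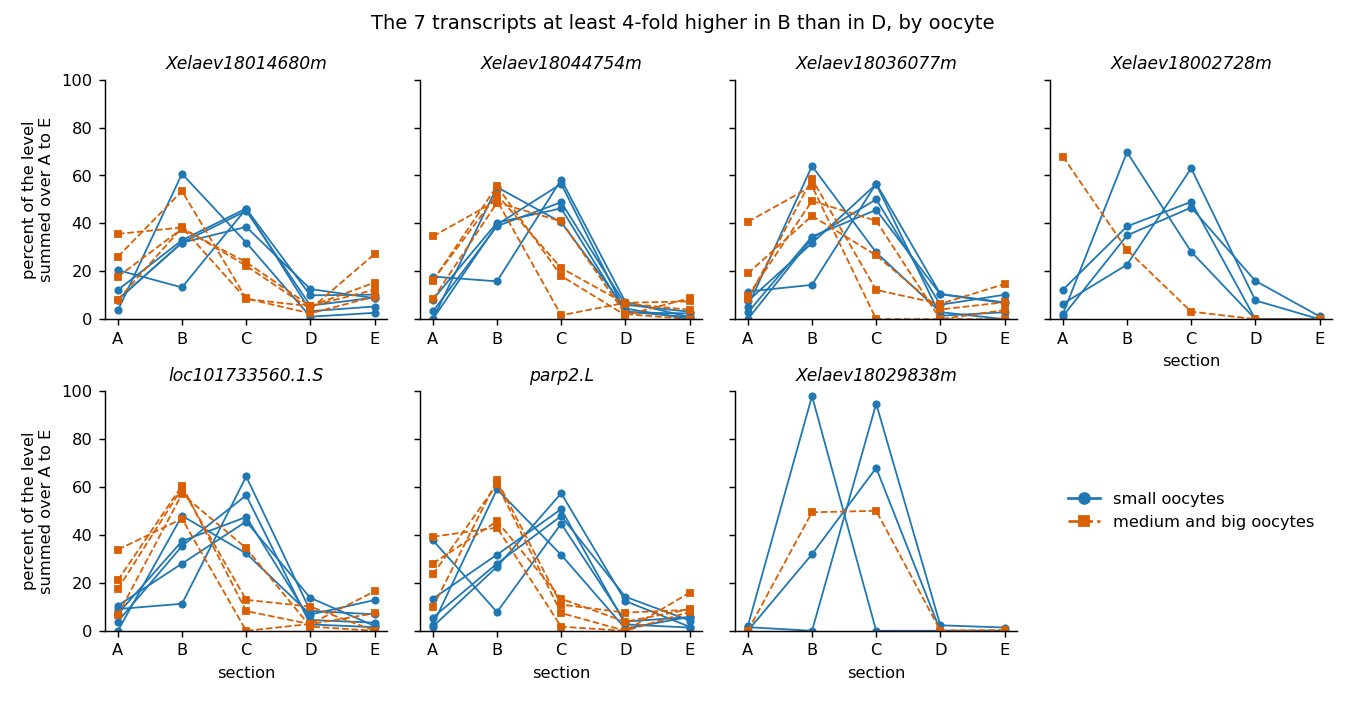
Share of the level summed over sections A to E (percent) for the 7 transcripts at least 4-fold higher in B, 1 line per oocyte, with small oocytes as circles and medium and big oocytes as squares; an oocyte with fewer than 20 counts of a transcript is left out. The share is highest in B or C in nearly every oocyte, mostly C in small and B in larger oocytes, and lower in D than in B in almost every oocyte shown, while the E share of Xelaev18014680m reaches 27.2% in medium oocyte 1.

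Most called transcripts were graded towards a pole rather than highest in B or D. Of the 370 higher in B, 311 had their highest mean level in A, 53 in B, 5 in C and 1 in E. Of the 593 higher in D, 541 were highest in E and 52 in D. In medium and big oocytes the vegetal transcripts rose by a median of 0.90 on the log2 scale from C to D and 0.71 from D to E, against 0.13 from B to C. In small oocytes these steps were 0.32, 0.50 and 0.10. The animal transcripts fell in 3 like steps in the larger oocytes, by -0.24 from A to B, -0.21 from B to C and -0.33 from C to D. Both sets were chosen by their B to D difference in these oocytes, so the steps between B and D are a description. The slices of an oocyte were shared equally among the 5 tubes, and where within section D a transcript lay was not resolved, so a gradual rise and a layer at the vegetal edge of D cannot be told apart.

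**Figure D3:**
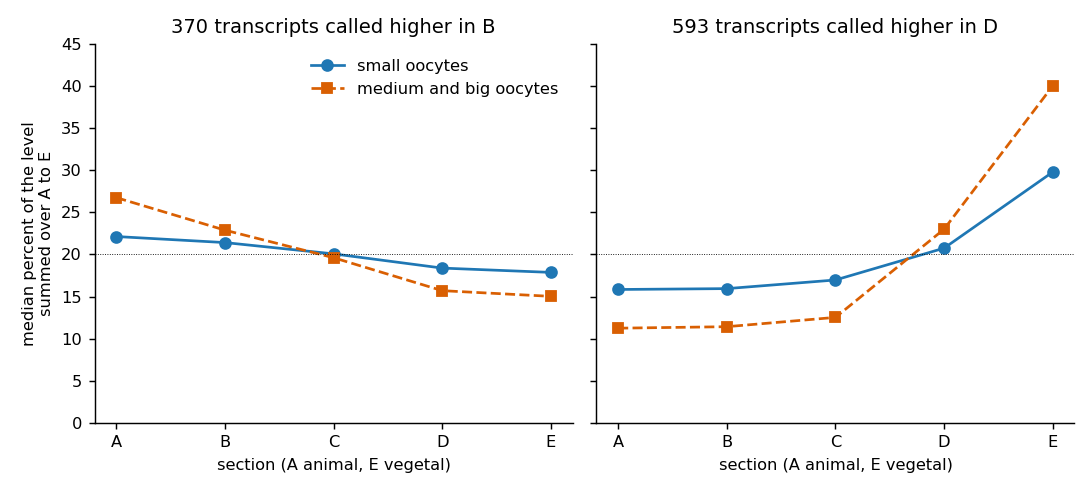
Median share (percent) of the level summed over sections A to E, by section, for the 370 transcripts called higher in B and the 593 called higher in D; circles are small and squares medium and big oocytes, and the dotted line marks an even 20%. In larger oocytes the share runs from 26.7% in A to 15.7% in D for the first set and from 11.2% in A to 23.0% in D and is highest in E for the second.

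Together the 593 vegetal transcripts took 2.54 to 2.70% of a section B library and 4.71 to 6.42% of a section D library in the larger oocytes. In small oocytes they took 2.82 to 3.62% and 3.57 to 5.04%. These shares use the values that chose the transcripts and are a description.

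The 52 transcripts highest in D included both copies of soga1, whose level peaked in D in 6 of 9 oocytes each. The soga1.L levels were 104, 121 and 153 CPM in B and 282, 342 and 420 in D (log2 -1.47, SE 0.07, adjusted p = 1.43e-09), and those of soga1.S 116, 140 and 159 in B and 183, 235 and 335 in D (log2 -0.77, SE 0.08, adjusted p = 5.61e-06). Neither overlapped, and the SE of soga1.L was the smallest among the named vegetal transcripts beyond 2-fold. The others named for their peak in D, seen in 5 to 7 of 9 oocytes, were spata2.S, an adaptor in TNF signalling (log2 -0.88, adjusted p = 3.98e-05), rufy3.L (-0.48, adjusted p = 0.000124), frmd4b.L (-0.30, adjusted p = 0.0121) and lrriq1.L (-0.22, adjusted p = 0.0985). In the D peaks named here, D exceeded the higher of its neighbours by 1.13-fold (spata2.S, frmd4b.L and lrriq1.L) to 1.23-fold (soga1.S). The peaks in B were shallow too. For htatip2.L, snrnp48.L of the minor spliceosome, ndufc2.S of respiratory complex I, terf2ip.L of telomeres, ddx4.S and usp6nl.S, a GTPase activator for Rab5, B exceeded the higher of its neighbours by 1.09-fold to 1.14-fold, in 5 or 6 of 9 oocytes.

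Small and larger oocytes were then fitted apart. In the 5 small oocytes 10 transcripts were higher in B (0.0526%) and 175 in D (0.92%), and without small oocyte 3, 146 (0.768%) and 291 (1.53%). Without small oocyte 4 they were 1 and 89, and without small oocytes 2 and 5 the animal count was 3 and 6. In the 4 medium and big oocytes 895 were higher in B (4.71%) and 921 in D (4.84%), and 583 in B without big oocyte 2. Between these groups, which share no library, 174 of the 175 vegetal calls and all 10 animal calls of small oocytes were also called in the larger ones. The 10 included all but Xelaev18002728m of the 7 transcripts at least 4-fold higher in B. Those were mostly highest in C in small oocytes. Of the 921 vegetal calls of larger oocytes, 86.6% had the same sign in small oocytes, where 47.2% of all transcripts were negative. For the 895 animal calls it was 77.2%, where 52.8% of all were positive. The median log2 ratio of the 921 transcripts lay between -0.34 and -0.13 in each small oocyte and between -0.78 and -0.57 in each larger one, and that of the 895 between -0.02 and 0.14 and between 0.39 and 0.45. The lowest of these, -0.02, was small oocyte 3. Both sets were chosen by their calls in the larger oocytes, so their larger medians there are a description and not support for a difference between sizes.

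The change itself was tested as the interaction of section with size. It was called positive for 152 transcripts (0.799%) and negative for 240 (1.26%), and without small oocyte 3 for 242 (1.27%) and 352 (1.85%). All 152 and 238 of the 240 differed more between B and D in the larger oocytes. The median log2 difference of the 152 was 0.08 in small and 0.80 in larger oocytes, and that of the 240 was -0.37 and -1.37. Leaving out a larger oocyte moved the positive count to 95 without big oocyte 2 and 101 without medium oocyte 2, and the negative count to 145 without medium oocyte 1 and 147 without big oocyte 2.

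**Figure D4:**
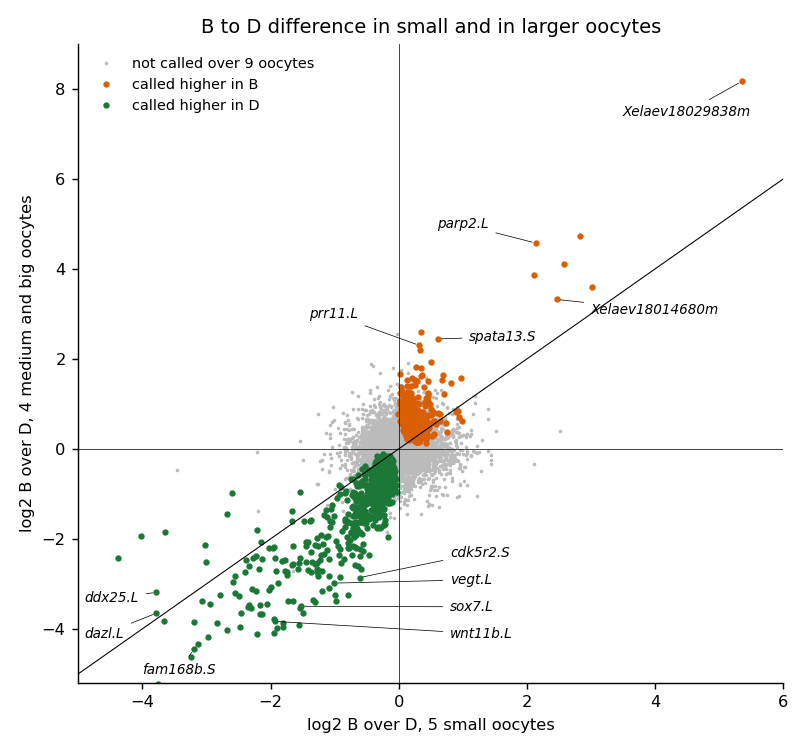
Log2 difference of B to D in the 5 small oocytes (x axis) against the 4 medium and big oocytes (y axis), 1 point per transcript, coloured by the call over 9 oocytes, with the line of equal difference; 5 transcripts lie outside the axes. The 7 transcripts at least 4-fold higher in B lie at the upper right, ddx25.L lies above the line, dazl.L near it, and vegt.L, sox7.L, wnt11b.L and cdk5r2.S well below it.

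Of the 20 late pathway and axis transcripts 11 had a called negative change and none a positive one, where 1.26% and 0.799% of all transcripts had. The vegt.L difference went from -1.01 in small to -2.98 in larger oocytes (change -1.97, adjusted p = 1.06e-06). Its B levels were 90.8 to 165 CPM in small oocytes and 52.8 to 63.4 in larger ones, and its D levels were 202 to 338 and 361 to 520 CPM. Neither section overlapped between the sizes. The change was -1.98 for sox7.L (adjusted p = 7.51e-05), -1.88 for wnt11b.L (0.00412) and -1.35 for fzd1.L, a Wnt receptor (2.85e-05). The fzd1.L difference was not called in small oocytes (log2 -0.22, adjusted p = 1) and was -1.57 in larger ones (adjusted p = 7.41e-13).

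Several early pathway RNAs were already steep in small oocytes. Of the 26 transcripts of the germ plasm list, 10 were higher in D in small oocytes and 16 in larger ones. Of all transcripts 0.92% and 4.84% were. The list medians were -0.23 and -0.93. The small and larger differences were -3.78 and -3.65 for dazl.L, -3.78 and -3.19 for ddx25.L, -2.56 and -2.82 for sybu.S, -2.39 and -2.48 for pgat.L, and -3.65 and -1.84 for nanos1.L. None of these had a called change (adjusted p = 0.895 to 1), which does not show that their differences were equal. Of the 26 germ plasm transcripts 4 had a called negative change, where 1.26% of all transcripts had. Among the 4 was plin2.L of the intermediate pathway (-0.83, adjusted p = 0.0377).

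Other vegetal transcripts with a large change were cdk5r2.S, an activator of the kinase Cdk5 (-2.25, adjusted p = 9.69e-07), the checkpoint kinase chek1.S (-1.54), rab11fip4l.S, an effector of Rab11 (-1.50), and the potassium channel kcnj5.L (-1.46). For cdk5r2.S the difference was -0.61 in small oocytes and -2.86 in larger ones. On the animal side the largest changes among the smallest adjusted p-values were spata13.S (1.84), prrg4.L (1.44), mprip.S and mprip.L, which bind myosin phosphatase (1.40 and 1.35), nusap1.S (1.28), lima1.S and lima1.L (1.28 and 1.03) and ifrd2.L (1.19). The mprip.L difference was 0.03 in small oocytes and 1.38 in larger ones (adjusted p = 2.86e-12). Its ranges in B and D overlapped in small oocytes and did not in larger ones.

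Wnt and TGF-β lists held more calls for D than for B, the Wnt list in part through members of the late pathway list. The medians of the Wnt and TGF-β lists lay near that of all transcripts (-0.05 and -0.03, against 0.01). Over all transcripts, 3.12% were higher in D and 1.95% in B, or 5.16% and 4.64% without small oocyte 3. At an unadjusted p below 0.05 by edgeR, 2544 of all 19012 passed over 9 oocytes in either direction. Of 55 Wnt transcripts 5 were higher in D and none in B (9 and 2 at an unadjusted p below 0.05), and without small oocyte 3, 7 and 2. Besides wnt11b.L and fzd1.L, they included the ubiquitin ligase subunit btrc.L (log2 -0.52, adjusted p = 0.00388) and the ligand wnt5a.S (-0.64, adjusted p = 0.0184). Of 48 TGF-β and BMP transcripts 7 were higher in D and 1 in B, where 3.12% and 1.95% of all transcripts were. The convertase pcsk6 was higher in D in both copies, with pcsk6.L levels of 5.63, 9.43 and 17 CPM in B and 24.7, 72.4 and 120 in D (log2 -2.85, SE 0.21, adjusted p = 1.14e-07) and a log2 difference of -1.57 for pcsk6.S (adjusted p = 0.000272). Neither copy overlapped. The inhibitory smad7.L (-0.62) and skil.S (-0.44), which restrain the same pathway, were also higher in D. Of 61 oocyte transcription factor transcripts 6 were higher in D and none in B (11 and 2 at an unadjusted p below 0.05), with sox7.L, otx1.L and both copies of vegt among them.

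Genes of RNA regulation, chromatin and lipid uptake also gave some strong vegetal transcripts, with list medians near that of all transcripts. These lists share members with those above. The lowest log2 values of the mRNA regulation and lipid lists, -3.71 and -3.49, were those of dazl.L and acsl1.S, already counted there. Among all transcripts tested, 3.12% were higher in D and 1.95% in B. Of 97 transcripts of maternal mRNA regulation 8 were higher in D and 3 in B, and the list median was -0.01. The deadenylation factor tob2.L had levels of 18.8, 36.1 and 94.9 CPM in B and 93.8, 184 and 316 in D (log2 -2.39, adjusted p = 8.92e-06), with overlap. The poly(A) polymerase papola.L (-1.23, adjusted p = 9.93e-05) and the helicase ddx6.L of P-bodies (-0.77, adjusted p = 0.000167) were lower in B too, and the RNA-binding ligase trim71.S was higher in B (0.49, adjusted p = 0.0388).

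Of 74 chromatin transcripts 4 were higher in D and none in B over 9 oocytes (7 and 2 at an unadjusted p below 0.05), and 6 and 3 without small oocyte 3. The shares over all transcripts were 3.12% and 1.95%, and 5.16% and 4.64% without small oocyte 3. At an unadjusted p below 0.05 by edgeR, 2544 of all 19012 passed over 9 oocytes, counting both directions. The 4 higher in D were atrx.L, a remodeller of heterochromatin (log2 -1.88, adjusted p = 2.06e-05), both copies of the histone acetyltransferase ep300 (ep300.L -0.96, ep300.S -0.38) and uhrf1.S of maintenance methylation (-0.36). Of 54 transcripts of sterol synthesis, lipoprotein uptake and lipid droplets 10 were higher in D and 1 in B, with a list median of 0.00. The lipoprotein receptor lrp1.S had levels of 91.1, 114 and 132 CPM in B and 170, 376 and 741 in D, without overlap (log2 -1.77, SE 0.14, adjusted p = 3.58e-07). The cholesterol exporter npc1.L of the lysosome was higher in D by 1.24-fold (adjusted p = 0.00639).

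Microtubule and cell cycle lists held calls on both sides. Beside them, 1.95% of all transcripts were higher in B and 3.12% in D, or 4.64% and 5.16% without small oocyte 3. Of 55 transcripts of motors and tubulins 4 were higher in D and 1 in B, dctn1.L of dynactin (0.21, adjusted p = 0.0697). Of 65 spindle, centrosome and kinetochore transcripts 3 were higher in B and 2 in D, and without small oocyte 3, 5 and 11. Besides prr11.L and nusap1.S, the centrosome scaffold pcnt.L was called, with levels of 210, 260 and 370 CPM in B and 379, 578 and 1013 in D (log2 -1.15, SE 0.16, adjusted p = 0.000145), without overlap. The checkpoint gene mad2l1.S was higher in B (0.28, adjusted p = 0.00872). Of 70 cell cycle transcripts 3 were higher in B, among them orc2.S and mcm2.L of replication licensing (0.35 and 0.34), and 3 in D, among them both copies of chek1 (chek1.S -1.21, chek1.L -0.72). Of 66 nuclear pore and transport transcripts 3 were higher in B (nup93.L, nup210.L and the importin tnpo1.L) and 1 in D, the importin kpna2.S (-0.27, adjusted p = 0.0135). In the 4 medium and big oocytes, 4.71% of all transcripts were higher in B and 4.84% in D. There the motor, spindle, cell cycle and nuclear pore lists had 3 and 6, 5 and 4, 6 and 4, and 9 and 2.

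Genes of mitochondria and ribosomes had small differences, and those called over 9 oocytes were higher in B, as were 1.95% of all transcripts. Of 118 transcripts of oxidative phosphorylation 13 were higher in B and none in D over 9 oocytes (34 and none at an unadjusted p below 0.05), and 26 and none without small oocyte 3. The list median was 0.15, against 0.01 over all transcripts tested. Both copies of atp5c1, a subunit of ATP synthase, were among them: atp5c1.L had levels of 57.5, 79.9 and 101 CPM in B and 41.8, 53.3 and 83.1 in D, which overlapped (log2 0.48, SE 0.08, adjusted p = 0.00102), and atp5c1.S differed by 0.45 (adjusted p = 0.00179). Next were cox4i2.S (0.41, adjusted p = 0.00129) and ndufb9.S (0.40, adjusted p = 0.00588). Of 91 mitochondrial ribosomal transcripts 4 were higher in B and none in D (median 0.11), and of 102 cytosolic ribosomal transcripts 4 and none (median 0.09), or 8 and 12 higher in B without small oocyte 3, when 4.64% of all transcripts were. In the 4 medium and big oocytes, 21 of the 118, 7 of the 91 and 4 of the 102 were higher in B, against 4.71% of all, so the cytosolic ribosomal share was below that of all transcripts there. None of these lists had a call by edgeR in either direction in the 5 small oocytes, where 7, 6 and 13 of the cytosolic ribosomal, mitochondrial ribosomal and oxidative phosphorylation transcripts were higher in B at an unadjusted p below 0.05. Their medians there were 0.10, 0.11 and 0.12. Of all transcripts in small oocytes, 0.0526% were called higher in B and 0.92% in D, so 0 calls for B in these lists say little. At an unadjusted p below 0.05 by edgeR, 904 of all 19012 passed there, counting both directions. Without small oocyte 3, 7, 4 and 7 of the 3 lists were called higher in B, where 0.768% of all transcripts were. Members of a list were read from the same libraries and are not independent of each other.

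The remaining lists held few calls. For comparison, 1.95% of all transcripts were higher in B and 3.12% in D, or 4.64% and 5.16% without small oocyte 3. Of 43 secretory and egg envelope transcripts 1 was higher in B, the envelope glycoprotein zpd.L (0.25, adjusted p = 0.0426), and none in D, and 5 were higher in B without small oocyte 3. Of 31 transcripts of the vacuolar ATPase and lysosome 2 were higher in B, atp6ap2.L (0.52) and the lysosomal glucosidase gaa.S (0.32), and 1 in D, npc1.L, and without small oocyte 3, 5 and 3. Of 48 heat shock and chaperonin transcripts 2 were higher in B, hsp90ab1.S (0.21) and hspe1.S (0.24), and none in D, and 5 were higher in B without small oocyte 3. Of 59 RNA helicases 2 were higher in B (ddx4.S and ddx41.L) and 2 in D (ddx25.L and ddx6.L). Of 86 ubiquitin and proteasome transcripts 2 were higher in B and 4 in D, and without small oocyte 3, 4 and 6. Of 47 germinal vesicle and nucleolus transcripts 1 was higher in B, the histone chaperone npm3.L (0.29, adjusted p = 0.048), and none in D, but without small oocyte 3 it was 3 and 4. In the 4 medium and big oocytes more were called, as over all transcripts (4.71% higher in B, 4.84% in D). There 7 of the 43 secretory and egg envelope transcripts were higher in B and 0 in D. For the 31 of the vacuolar ATPase and lysosome it was 5 and 2. The heat shock, helicase, ubiquitin and germinal vesicle lists had 2 and 1, 3 and 3, 5 and 6, and 4 and 1.

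**Figure D5:**
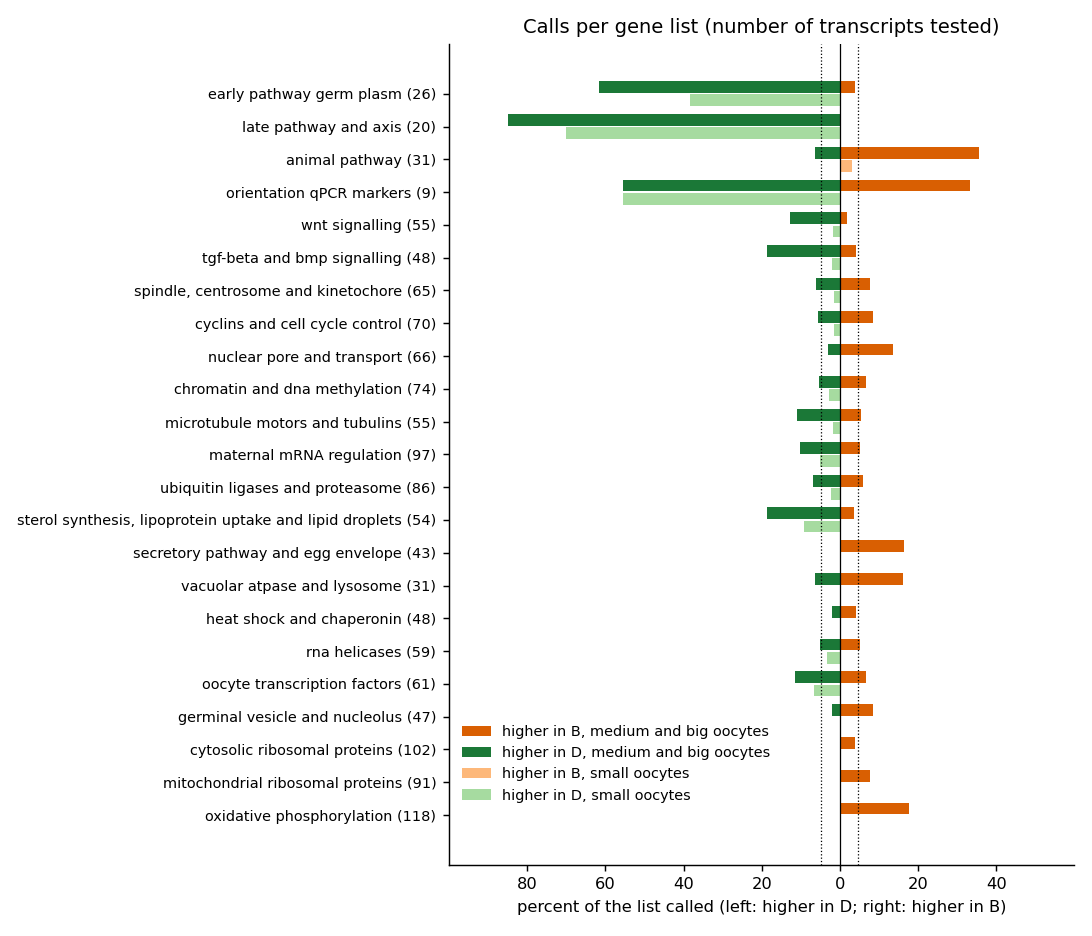
Percent of each gene list called higher in B (right) or higher in D (left), dark bars for the 4 medium and big oocytes and light bars for the 5 small ones, with the number of transcripts tested after each name; dotted lines mark the share over all transcripts in the larger oocytes (4.71% and 4.84%). The late pathway, germ plasm and qPCR lists reach farthest to the left, at both sizes, while the animal, oxidative phosphorylation and secretory lists are among those to the right in larger oocytes.

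Calls were compared between homeologs. Of 5446 gene pairs with both copies tested, both were higher in B in 18 and both higher in D in 58, while 1 copy alone was called in that direction in 177 and 254 pairs. The uncalled copy had the same sign in 139 of the 177 and 183 of the 254. Over all transcripts tested, 52.5% were positive and 47.5% negative. The widest gap was in fam168b, where fam168b.L differed by -0.51 (adjusted p = 0.00048) and fam168b.S by -3.73. In ppp1r2 the .L copy differed by -2.88 and the .S copy by 0.03 (adjusted p = 0.941), and in farp2 the values were -3.18 and -0.56. In 3 pairs the copies were called in opposite directions, all with small differences: dtnbp1 (.L -0.39, .S 0.43), mob1a (.L -0.23, .S 0.29) and smurf1 (.L 0.28, .S -0.22). The difference between copies was not tested.

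In the very small oocytes of the other female 4 transcripts were higher in B (0.021%) and 82 in D (0.431%), and without oocyte as block 0 and 1. Of the 593 vegetal calls of the 9 oocytes 72 were called there in the same direction, and 77.1% had the same sign, where 49.7% of all transcripts were negative. Of the 370 animal calls 1 was called and 57.8% had the same sign, where 50.3% of all were positive. Early pathway RNAs differed there too, with a log2 difference of -2.60 for dazl.L (adjusted p = 1.03e-05), -2.45 for ddx25.L (7.54e-07) and -2.26 for nanos1.L (0.00607). Values were smaller for vegt.L (-0.34, adjusted p = 0.019) and wnt11b.L (-1.10, adjusted p = 0.0212), and spata13.S was not called (0.02, adjusted p = 0.999). Stage and female cannot be told apart in this comparison, and leaving out very small oocyte 2 or 3 moved the vegetal count to 20 or 174.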

How the data were processed

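Oocytes were sectioned by the authors, RNA was depleted of rRNA, and paired reads were trimmed with Trimmomatic, aligned with STAR 2.5.2b to X. laevis genome v9.1 and counted per gene with HTSeq; the strand setting is not given in the sources used here. The deposited table holds whole-number counts of 32291 transcripts in 59 libraries, not normalized. Its 1 row without a transcript name was left out. Other deposited tables, which hold size-factor normalized values and sums per oocyte, were not used.

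Sections B and D were tested with edgeR 4.0.16 (R 4.3.3; quasi-likelihood F test, TMM, oocyte as block, two-sided, Benjamini-Hochberg over the 19012 transcripts whose scaled total over A to E averaged above 20 per oocyte), with calls at an adjusted p below 0.1. A positive log2 value is higher in B. Standard errors are the log2 value divided by the square root of F. Levels are CPM scaled by TMM factors of all 59 libraries, not per length, so levels are not compared between genes. B and D are paired because they are from the same oocyte; the deviations of B and D from their means correlated by -0.156 to 0.439 (median 0.275) within an oocyte.

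Named genes were those with the 12 largest differences in each direction (same sign in 9 oocytes, scaled total of at least 100, gene symbol), up to 4 members per list with the smallest adjusted p, the 6 qPCR genes, the 8 smallest interaction p-values in each direction, the 6 clearest peaks in B and in D, and homeologs called in opposite directions. Some results that these rules would name are not reported here. List members that were not called are given by count only. The 7 transcripts at least 4-fold higher in B, parp2.S, rflb.L and the homeologs with wide gaps were chosen after their values were seen. Members and lists were chosen with earlier results of these data known. Alternatives were other scalings, filters and tests, thinning to 1853333 counts, no block and leaving out each oocyte; list counts without small oocyte 3 were added after seeing the data. Scripts were tested on simulated data. Counting precision was limited by totals of 1853333 to 7163780 per library.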

Additional observations from a re-analysis of the deposited data

Results flagged for a closer look

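Of 261 groups of 4 or 5 values in which a single oocyte or library could stand far from the rest, 14 did, where chance alone gives about 1 in 20. Small oocyte 3 gave 4 of the gene values, with log2 ratios of B to D of -0.85 for chek1.L, 0.80 for orc2.S, -1.49 for plin2.L and 0.52 for hsp90ab1.S, and the SD of its ratio over transcripts (0.442) was far from the other small oocytes. Among the larger oocytes, big oocyte 1 stood apart in ndufc2.S (1.32), ifrd2.L (1.35) and dtnbp1.S (-0.22), big oocyte 2 in mad2l1.S (0.15), medium oocyte 1 in c1orf21.L (1.54), and medium oocyte 2 in sox7.L (-2.82) and Xelaev18029838m (6.70). Section B of big oocyte 1 was shallow (1853333 counts) and section D of small oocyte 4 was deep (7163780 counts) for their groups.

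The B to D difference of 46 named genes changed between small and larger oocytes by edgeR's interaction test at an adjusted p below 0.1. The log2 change was positive, towards B, for prr11.L (1.99), spata13.S (1.84), prrg4.L (1.44), mprip.S (1.40), mprip.L (1.35), lima1.S (1.28), nusap1.S (1.28), exd2.L (1.20), ifrd2.L (1.19), adpgk.L (1.05), lima1.L (1.03), trim71.S (0.85), lysmd3.L (0.84), smtn.S (0.82), ubl3.S (0.78), mrpl15.L (0.71), exd2.S (0.65), nup210.L (0.63) and mcm2.L (0.52). It was negative, towards D, by more than 4-fold for cdk5r2.S alone (-2.25). Then came sox7.L (-1.98), vegt.L (-1.97), wnt11b.L (-1.88), tob2.L (-1.73), chek1.S (-1.54), vegt.S (-1.51), rab11fip4l.S (-1.50), kcnj5.L (-1.46), atrx.L (-1.37), fzd1.L (-1.35), fam168b.S (-1.25), kif13b.S (-1.23), stard3.L (-1.16), acsl1.S (-1.16), acsl1.L (-1.14), pcnt.L (-1.12), papola.L (-1.09), wnt5a.S (-1.03), gdf9.S (-0.998), ep300.L (-0.99), chek1.L (-0.92), plin2.L (-0.83), farp2.S (-0.78), smad7.L (-0.77), btrc.L (-0.66) and ddx6.L (-0.64). Several of these genes were named by the size of their change, so their presence here is no further evidence.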

How the results depend on the processing

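Over the 9 oocytes, 224 transcripts were higher in B at an adjusted p below 0.05, 67 were higher in B and 350 in D at 1.5-fold or more, and 140 and 380 after thinning to the shallowest library. Other scalings, filters, DESeq2's Wald test and the fit without the replicate block gave 273 to 509 and 518 to 712, within 1.5 times the main counts. The block changed no other count by over 1.5 times, except in very small oocytes, where the fit without the replicate block called 0 (B) and 1 (D). Leaving out 1 oocyte gave ranges of 148 to 882 (B) and 411 to 981 (D) over 9 oocytes, 1 to 146 and 89 to 291 in small, 583 to 766 and 725 to 956 in medium and big, and 2 to 23 and 20 to 174 in very small oocytes, and 95 to 242 positive and 145 to 352 negative stage changes. The highest counts came without small oocyte 3, except in medium and big and in very small oocytes. For B over 9 oocytes, 203 were called without big oocyte 1, 174 without big oocyte 2, 148 without medium oocyte 1 and 193 without medium oocyte 2; in small oocytes, 1 (B) and 89 (D) without small oocyte 4, 3 (B) without small oocyte 2 and 6 (B) without small oocyte 5. Fewer samples are tested there, and other causes were not tested. The log2 ratio of library totals ran from -0.26 to 0.04, turning positive without big oocyte 1 (0.0371, p = 0.875 by exact permutation). Of 128 named transcripts 127 were called, 62 of these under every alternative run, and none reversed. Most of the 128 were named for a call or a small adjusted p, so the 127 follows from that choice. Transcripts named only for comparison, such as parp2.S and rflb.L, are not among them. Scarce transcripts such as nanos1.L and Xelaev18002728m were limited by depth.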
